A study of Mus musculus with 12 samples.

Results

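The combination of cGAMP with IL-35 blocking antibodies was set against control IgG in natural killer (NK) cells sorted from mouse pancreatic tumours. The 2 groups were taken by their treatment labels and made up 6 of the 12 RNA-seq libraries of the study. After a filter on low counts, 14182 of the 27179 gene IDs deposited were tested. All mice were of WT genotype and bore tumours grown from injected tumour cells, and NK cells were sorted on day 21. The combination group (3 libraries) received cGAMP, 10 µg intravenously on 4 occasions, and anti-IL-35, 200 µg intraperitoneally on 3 occasions. Both courses began on day 8 and were repeated every 3 days. The cGAMP group and the anti-IL-35 group (3 libraries each) received 1 agent each, and the control group (3 libraries) is labelled IgG. PBS was the intravenous control for cGAMP. The strain, sex and age of the mice, the tumour line and the sort gate are not given in the sources used here.

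NK cells are innate lymphocytes that read a balance of activating and inhibitory surface receptors and kill targets by releasing perforin and granzymes. cGAMP is the second messenger of the cytosolic DNA sensor cGAS and activates the adaptor STING, which drives type I interferon and, through it, a set of antiviral interferon-stimulated genes. IL-35 is an inhibitory cytokine of the IL-12 family, made of the subunits Ebi3 and Il12a, and is produced mainly by regulatory B and T cells. The comparison asked how tumour NK cells differed when the STING agonist was given while IL-35 was blocked.

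Library totals were 17710752 to 20698114 counts in the combination group and 14383401 to 16305303 counts in the IgG group. Levels are CPM, the counts of a gene relative to the library total, scaled by TMM, a correction for library composition, with means ± SD over 3 libraries, and changes are log2 fold changes of the combination over IgG ± SE. A gene was called at an adjusted p under 0.05, from the quasi-likelihood test of edgeR adjusted by Benjamini-Hochberg over all genes tested. Every adjusted p below is from that test unless another setting is named. Whether each library of a group came from its own mouse is not labelled, so p-values reflect the spread among these libraries and that spread may be technical. NK receptor transcripts were abundant in all 6 libraries, and so were transcripts of other cells: immunoglobulin genes took 2.53 ± 0.0122% of counts in the combination and 2.62 ± 0.0208% with IgG. Mitochondrial transcripts took 6.44 ± 0.378% in the combination and 6.10 ± 0.107% with IgG, and ribosomal protein genes 4.62 ± 0.0514% in the combination and 5.54 ± 0.0381% with IgG. In bulk RNA, fewer cells of a type and less RNA per cell cannot be told apart.

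The combination libraries differed from the IgG libraries at 3288 genes, which is 23.2% of those tested. Of these, 2224 were higher (15.7% of all genes tested) and 1064 were lower (7.50%), and 437 and 97 of them differed at least 2-fold. The libraries of the 2 groups did not overlap at 3194 of the 3288 called genes. The calls come from the same libraries, so this is no separate support for them. The plot of change against level shows that neutrophil genes were among the highest points of the abundant genes, while NK receptor genes moved by small amounts. The balance of higher and lower calls depended on scaling: 67.6% of calls were higher under TMM, 28.8% with library totals alone and 97.1% with libraries scaled on 8 NK receptor transcripts. The median log2 fold change of all genes was -0.02 under TMM, -0.17 with library totals alone and 0.24 with NK receptor scaling, and the changes below are relative to the TMM centre. NK receptor scaling holds those 8 transcripts near 0 by construction.

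**Figure D1:**
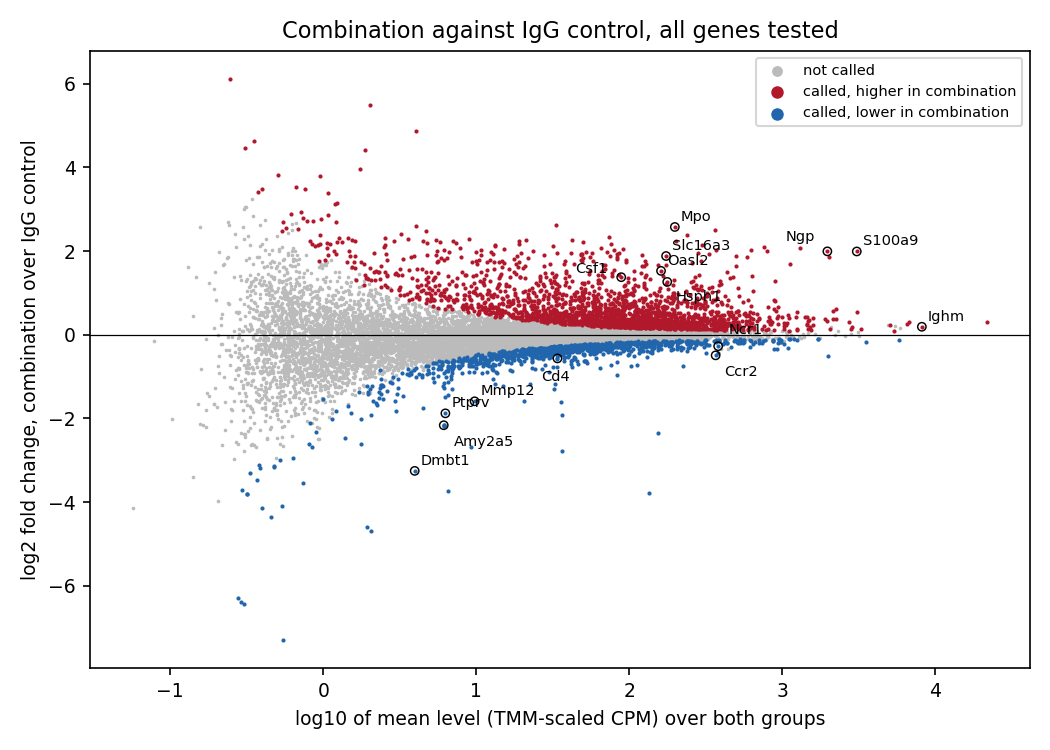
Each point is a gene, with the log10 of its mean level over both groups (CPM) on the x axis and the log2 fold change of the combination over IgG control on the y axis. Red points are called higher, blue points called lower and grey points not called, and 15 genes are labelled. Mpo and S100a9 lie far above 0 and Dmbt1 and Amy2a5 far below it, while Ncr1 lies just under 0.

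**Figure D2:**
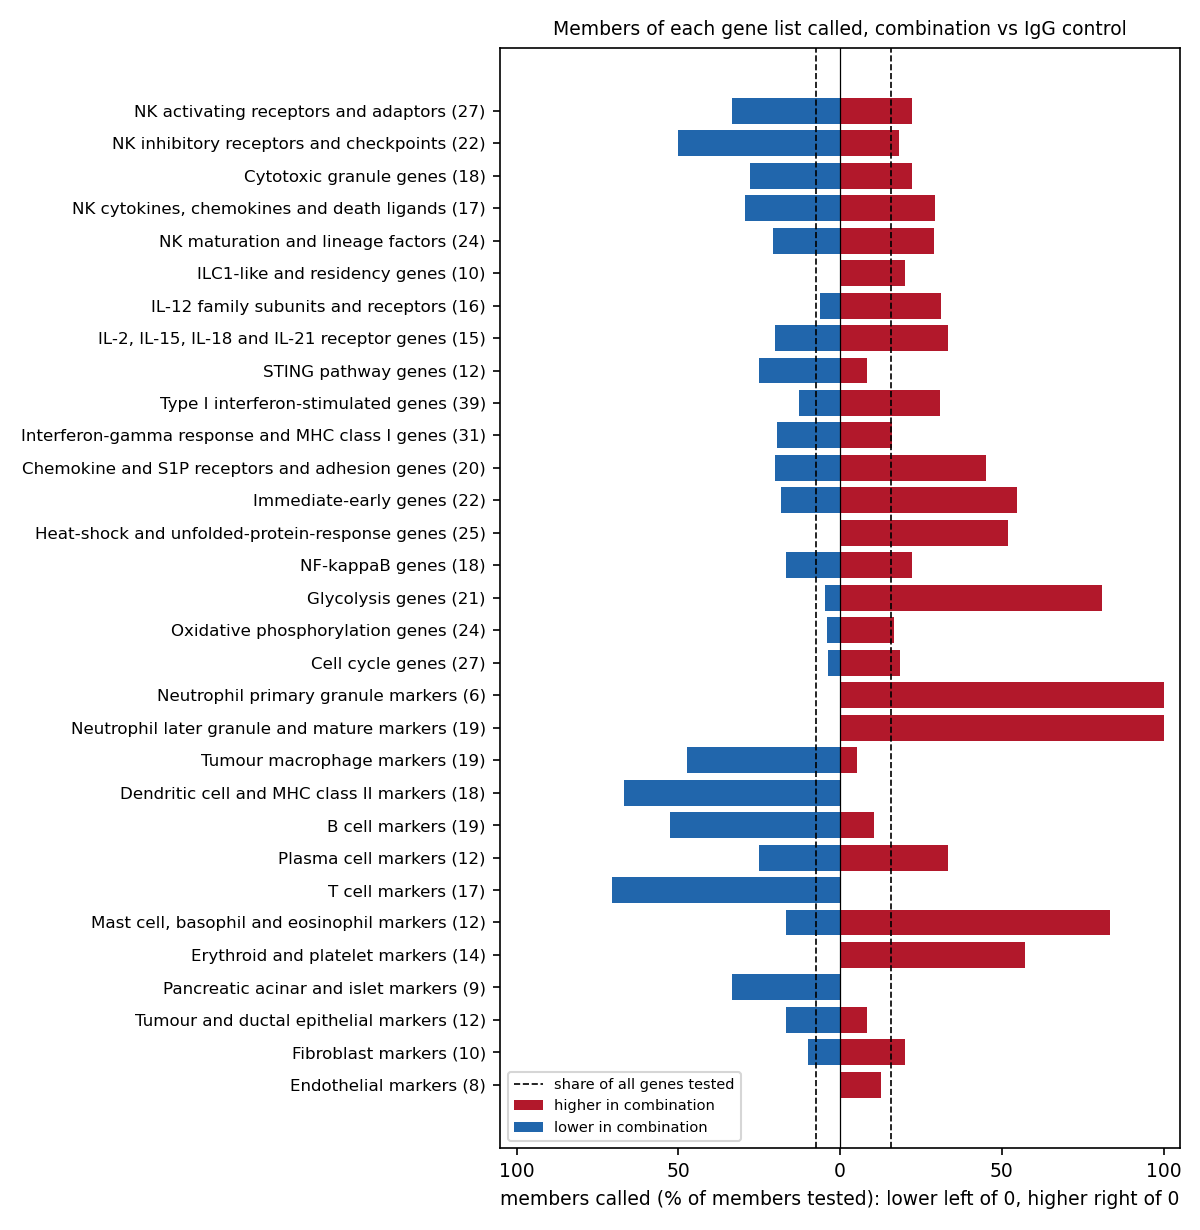
Bars give the percent of tested members of each gene list that were called, to the right of 0 for members higher in the combination and to the left for members lower, with the number tested in brackets. Dashed lines mark the shares over all genes tested, 15.7% higher and 7.50% lower. All members of both neutrophil lists were higher, and inhibitory NK receptors, dendritic cell, B cell and T cell lists leaned to the lower side.

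Of the receptors by which NK cells recognise targets, Ncr1, Klrb1c and Klrk1 were lower in the combination by small amounts. Ncr1 (NKp46, gene 17086, chromosome 7, 4337715 to 4345184 in build mm10), the natural cytotoxicity receptor that defines mouse NK cells, had 341, 343 and 355 CPM in the combination libraries, against 433, 408 and 415 CPM in the IgG libraries. All 3 combination libraries lay below all 3 IgG libraries (log2 fold change -0.27 ± 0.05, adjusted p = 3.34e-06). Klrb1c, the NK1.1 receptor, had 484, 505 and 509 CPM in the combination libraries, against 575, 566 and 568 CPM in the IgG libraries, again without overlap (log2 fold change -0.19 ± 0.04, adjusted p = 0.000252). Klrk1, which encodes the stress ligand receptor NKG2D, had 471, 477 and 493 CPM in the combination libraries, against 554, 551 and 544 CPM in the IgG libraries (log2 fold change -0.19 ± 0.05, adjusted p = 0.000927). None of the libraries of these 3 receptors overlapped between groups. NK receptor scaling ended the calls of Klrb1c, Klrk1 and Ncr1. That scaling is set on NK receptor transcripts, so it cannot show whether NK receptors as a set changed.

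Of the activating receptors and adaptors, 6 of 27 members tested were higher and 9 lower, with a median of -0.11. Other lower members were Klrc2 (-0.44 ± 0.08), which pairs with Klrd1, Klrb1f (-0.31 ± 0.08), Sh2d1a (-0.40 ± 0.11), the SLAM receptor adaptor SAP, Crtam (-0.46 ± 0.12) and Slamf6 (-0.69 ± 0.17). The higher members were the Fc receptor Fcgr3 (0.82 ± 0.05, adjusted p = 1.72e-18), the kinase Syk (0.51 ± 0.04), the ITAM adaptors Tyrobp (0.39 ± 0.04) and Fcer1g (0.29 ± 0.05), and the signalling proteins Vav1 (0.29 ± 0.05) and Lcp2 (0.25 ± 0.05). Fcgr3 had 296, 292 and 296 CPM in the combination libraries, against 164, 162 and 174 CPM in the IgG libraries, and its groups did not overlap. These 6 higher genes are also expressed by neutrophils and macrophages, and the later neutrophil markers had a median change of 1.93 here. The part of other cells in them was not tested. The costimulatory receptor Cd226 (-0.06 ± 0.10, adjusted p = 0.76) did not pass. The list counted 5 higher and 16 lower with library totals alone, and 11 higher and 1 lower with NK receptor scaling. Library totals alone ended the call of Lcp2, and NK receptor scaling those of Crtam, Klrb1f, Klrc2, Klrd1 and Sh2d1a.

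Inhibitory receptors fell more often than they rose: 4 of 22 members tested were higher and 11 lower, with a median of -0.27. Klrd1 (CD94, gene 16643, chromosome 6, 129588092 to 129598775), the partner chain of the NKG2 receptors, had 173, 166 and 169 CPM in the combination libraries, against 199, 200.1 and 211 CPM in the IgG libraries (log2 fold change -0.26 ± 0.06, adjusted p = 0.000225). Klra7, a Ly49 receptor for MHC class I, had 120.2, 123 and 113 CPM in the combination libraries, against 155, 159 and 155 CPM in the IgG libraries (log2 fold change -0.40 ± 0.06, adjusted p = 2.07e-06). Both were lower in every combination library. Ly49 genes resemble each other, so the level of a single copy is uncertain, and Klra3 (-0.45 ± 0.09) fell as well. Among checkpoint receptors, Lag3 had 25.9, 26.7 and 25.1 CPM in the combination libraries, against 37.1, 34.3 and 36.8 CPM in the IgG libraries (log2 fold change -0.48 ± 0.10, adjusted p = 0.000297) and Tigit had 23.5, 16.9 and 20.2 CPM in the combination libraries, against 27.1, 25.3 and 29.2 CPM in the IgG libraries (log2 fold change -0.43 ± 0.12, adjusted p = 0.00725). Neither gene overlapped between groups, but the Tigit call ended without IgG control replicate 3 (-0.38) or combination replicate 2 (-0.32). Cd96 (-0.34 ± 0.09), a receptor of nectin-like ligands, also fell, whereas Pdcd1 (-0.48 ± 0.27, adjusted p = 0.214) at 4.31 CPM and Havcr2 (-0.23 ± 0.12, adjusted p = 0.186) did not pass. Higher members included Ceacam1 (0.77 ± 0.06) and Lilrb4a (0.65 ± 0.06), both also found on myeloid cells, and the maturity marker Klrg1 (0.31 ± 0.07). The list counted 2 higher and 14 lower with library totals alone, and 5 higher and 0 lower with NK receptor scaling. The call of Klrg1 ended with library totals alone, and those of Cd96, Klra3, Klra7, Klrd1, Lag3 and Tigit with NK receptor scaling. Havcr2 was called lower with library totals alone.

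**Figure D3:**
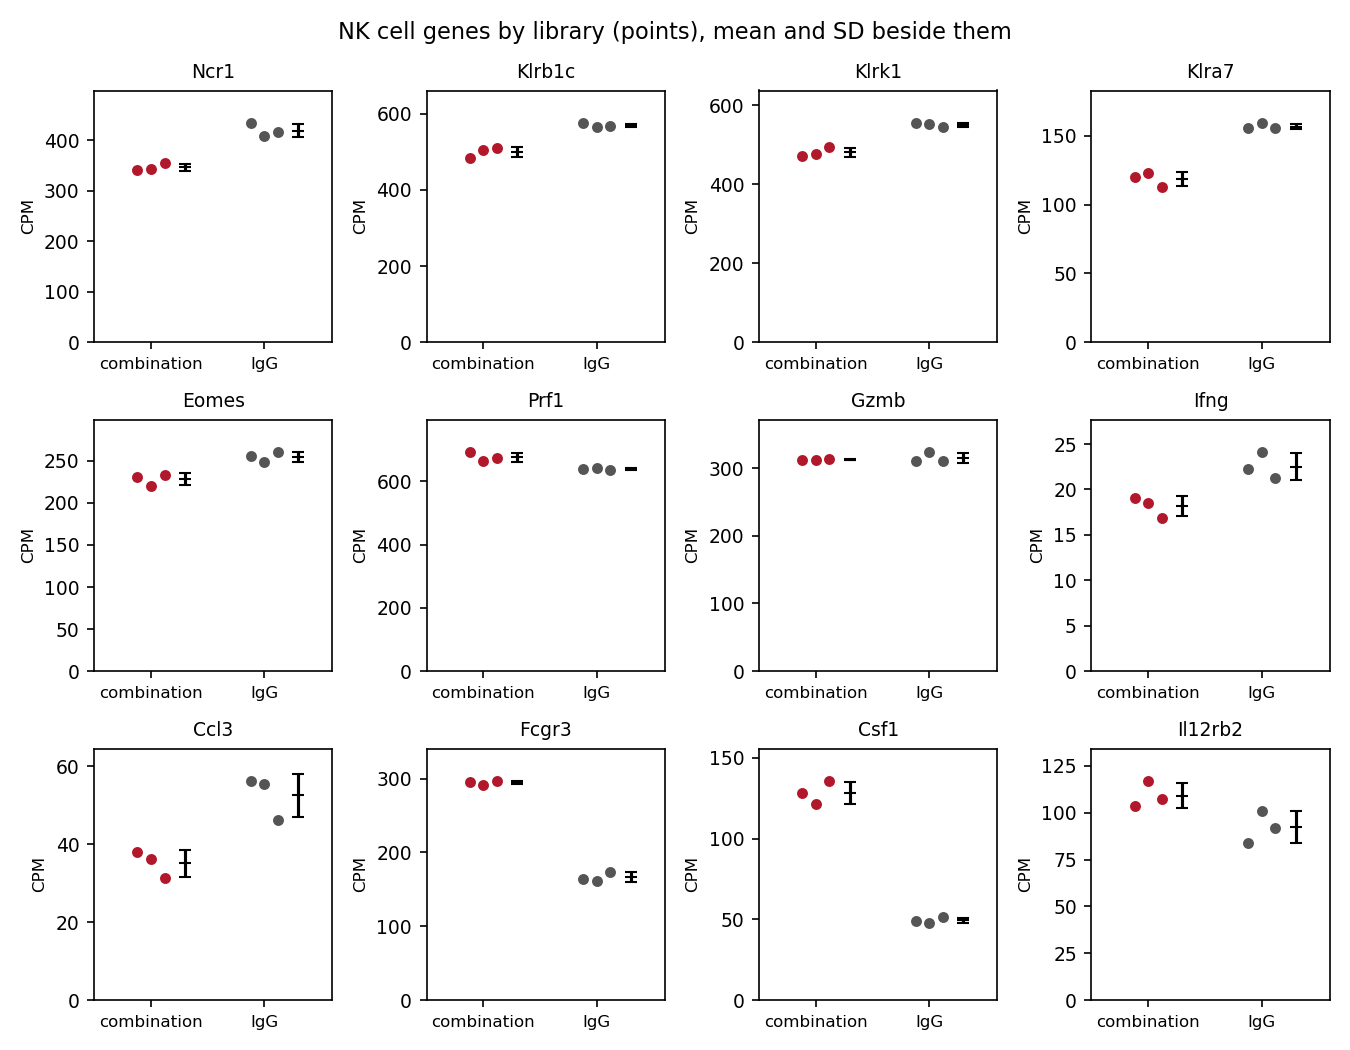
Each panel gives 1 NK cell gene, with the level in CPM on the y axis from 0, combination libraries in red at the left and IgG libraries in grey at the right, and the mean and SD beside the points. Ncr1, Klrb1c, Klrk1, Klra7, Ccl3 and Eomes were lower in the combination, Fcgr3, Csf1 and Il12rb2 were higher, and Gzmb overlapped between groups. The part of other cells in these levels was not tested.

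The lytic effector genes did not pass the test. Prf1 (perforin, gene 18646, chromosome 10, 61297751 to 61304684) had 692, 663 and 673 CPM in the combination libraries, against 639, 641 and 637 CPM in the IgG libraries (log2 fold change 0.08 ± 0.04, adjusted p = 0.138). Gzmb (granzyme B) had 312, 312 and 313 CPM in the combination libraries, against 310.1, 323 and 310.5 CPM in the IgG libraries (log2 fold change -0.01 ± 0.05, adjusted p = 0.905). Gzma (granzyme A), the most abundant granzyme here, had 1665, 1726 and 1759 CPM in the combination libraries, against 1843, 1838 and 1795 CPM in the IgG libraries (log2 fold change -0.09 ± 0.04, adjusted p = 0.0863). The Gzmb libraries of the groups overlapped. Gzma was called lower with RLE size factors (adjusted p = 0.0487), with no filter on low counts (0.00255), with only the groups compared (0.00255) and with library totals alone (1.38e-06), but higher with NK receptor scaling (0.0228). Of all cytotoxic granule genes, 4 of 18 members tested were higher and 5 lower. Granule transport genes were the higher ones: Srgn (0.78 ± 0.04, adjusted p = 8.37e-21), the proteoglycan that packs granules, the membrane fusion protein Stx11 (0.73 ± 0.07), the vesicle GTPase Rab27a (0.63 ± 0.06) and Lamp2 (0.38 ± 0.05). All 4 are also used by myeloid cells. The lower ones included the granzyme B inhibitor Serpinb9 (-0.34 ± 0.05) and the cathepsins Ctsw (-0.29 ± 0.05) and Ctsc (-0.18 ± 0.04), of which Ctsc activates granzymes. The list counted 4 higher and 9 lower with library totals alone, and 11 higher and 0 lower with NK receptor scaling. The calls of Ctsc, Ctsw and Serpinb9 ended with NK receptor scaling. Gzmb was called lower with library totals alone, and Gzmb and Prf1 were called higher with NK receptor scaling.

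Secreted factors split in both directions, with 5 of 17 higher and 5 lower. Csf1, the growth factor of macrophages (M-CSF), had 128, 121 and 135 CPM in the combination libraries, against 49.2, 47.9 and 51.3 CPM in the IgG libraries (log2 fold change 1.37 ± 0.07, adjusted p = 2.36e-22), a 2.59-fold difference without overlap. The costimulatory ligand Tnfsf14 (0.77 ± 0.07) (LIGHT) rose as well. The part of other cells in Csf1 and Tnfsf14 was not tested. Of the chemokines of activated NK cells, Ccl3 had 38.0, 36.2 and 31.3 CPM in the combination libraries, against 56.2, 55.4 and 46.2 CPM in the IgG libraries (log2 fold change -0.58 ± 0.10, adjusted p = 4.40e-06), lower in every combination library. Xcl1 (-0.42 ± 0.08), which attracts cross-presenting dendritic cells, was lower too. Ccl5, by contrast, was higher by a small amount (log2 fold change 0.11 ± 0.04, adjusted p = 0.0181). It had 1640, 1615 and 1585 CPM in the combination libraries, against 1543, 1479 and 1458 CPM in the IgG libraries, without overlap. Ifng, the main NK cytokine, had 19.0, 18.6 and 16.9 CPM in the combination libraries, against 22.2, 24.1 and 21.2 CPM in the IgG libraries and did not pass (log2 fold change -0.31 ± 0.12, adjusted p = 0.059), although its combination libraries all lay below the IgG libraries. The Ifng call was made with RLE size factors (adjusted p = 0.0486), DESeq2 (0.0252), library totals alone (0.00246) and a fit of only the groups compared (0.0444). The death ligand Fasl (-0.20 ± 0.10) did not pass. The list counted 2 higher and 8 lower with library totals alone, and 5 higher and 1 lower with NK receptor scaling. NK receptor scaling ended the call of Xcl1. Fasl was called lower with library totals alone.

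Transcription factors of the NK lineage moved apart. Eomes, the T-box factor of conventional NK cells, had 231, 220.3 and 233 CPM in the combination libraries, against 255, 248 and 260.1 CPM in the IgG libraries (log2 fold change -0.16 ± 0.05, adjusted p = 0.0188). Its groups did not overlap, yet the call ended without IgG control replicate 1 (-0.16) or 3 (-0.14) or combination replicate 2 (-0.13). Id2, which restrains E proteins in innate lymphocytes, had 314, 291 and 317 CPM in the combination libraries, against 364, 360.2 and 366 CPM in the IgG libraries (log2 fold change -0.24 ± 0.05, adjusted p = 0.000156). Tbx21 (T-bet), the partner of Eomes in maturation, did not pass (log2 fold change 0.08 ± 0.05, adjusted p = 0.351). Ikzf2 (-0.48 ± 0.12) (Helios) was lower, and Nfil3 (0.83 ± 0.08), Klf2 (0.55 ± 0.05) and Irf2 (0.42 ± 0.06) were higher. Along the maturation axis, Cd27 (-0.39 ± 0.09), a marker of less mature NK cells, was lower, and Itgam (0.61 ± 0.04) (CD11b) and Spn (0.20 ± 0.04) (CD43), markers of more mature cells, were higher. Itgam, Nfil3 and Klf2 are also expressed in myeloid cells. In all, 7 of 24 members tested were higher and 5 lower, and the list counted 4 higher and 11 lower with library totals alone, and 14 higher and 0 lower with NK receptor scaling. Of the ILC1-like and residency genes, 2 of 10 were higher, the ectonucleotidase Entpd1 (1.00 ± 0.05) (CD39) and Rgs2 (0.56 ± 0.06), and 0 lower. The share called, 20%, is near the 23.2% of all genes. The part of other cells in Entpd1 and Rgs2 was not tested. The call of Spn ended with library totals alone, and those of Cd27, Eomes, Id2 and Ikzf2 with NK receptor scaling. Tbx21 was called higher with NK receptor scaling.

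The genes of IL-35 itself were low. Ebi3 (gene 50498, chromosome 17, 55952623 to 55957022), the subunit shared by IL-35 and IL-27, had 19.6, 21.2 and 17.5 CPM in the combination libraries, against 10.8, 7.50 and 9.89 CPM in the IgG libraries (log2 fold change 1.05 ± 0.16, adjusted p = 5.23e-07), with all combination libraries above the IgG libraries. Il12a, the other IL-35 subunit and also a chain of IL-12, had 2.29, 1.62 and 1.36 CPM in the combination libraries, against 2.08, 2.42 and 2.74 CPM in the IgG libraries and did not pass (log2 fold change -0.46 ± 0.52, adjusted p = 0.589). Of the receptor chains used by IL-35, Il12rb2 (0.24 ± 0.07, adjusted p = 0.00597) was higher and Il6st (-0.04 ± 0.08) (gp130) did not pass. The Il12rb2 call ended without IgG control replicate 1 (0.18) or combination replicate 2 (0.19). Socs3, the feedback inhibitor induced by STAT3, had 282, 289 and 270.2 CPM in the combination libraries, against 111, 110.2 and 116 CPM in the IgG libraries (log2 fold change 1.32 ± 0.05, adjusted p = 1.26e-25), a 2.49-fold difference, and Stat3 (0.47 ± 0.04) rose. Stat4, the main signal transducer of IL-12, did not pass (-0.05 ± 0.05). Of the list, 5 of 16 members tested were higher and 1 lower, and it counted 3 higher and 4 lower with library totals alone, and 8 higher and 0 lower with NK receptor scaling. The call of Il12rb2 ended with library totals alone. Stat4 was called lower with library totals alone, and Stat4 was called higher with NK receptor scaling.

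Receptors of other cytokines that sustain NK cells gave 5 higher and 3 lower genes of 15. The IL-4 receptor chain Il4ra (0.78 ± 0.05, adjusted p = 5.10e-18), its transducer Stat6 (0.37 ± 0.05), Stat5b (0.35 ± 0.05) and the accessory chain Il18rap (0.22 ± 0.05) were among the higher genes. The IL-18 binding chain Il18r1 (-0.21 ± 0.05) was lower, so the chains of the IL-18 receptor moved apart. The high-affinity IL-2 receptor chain Il2ra (-0.39 ± 0.19) did not pass. This list counted 3 higher and 8 lower with library totals alone, and 8 higher and 0 lower with NK receptor scaling. Library totals alone ended the call of Il18rap, and NK receptor scaling that of Il18r1. Il2ra was called lower with library totals alone.

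Of the STING pathway genes, 1 of 12 members was higher and 3 were lower. The share called was 33.3%, against 23.2% of all genes, and lower calls made up 7.50% of all genes. Tmem173, which encodes STING, had 88.3, 110.0 and 103 CPM in the combination libraries, against 127, 106 and 118 CPM in the IgG libraries (log2 fold change -0.22 ± 0.07, adjusted p = 0.019), and the groups overlapped. The call ended without IgG control replicate 1 (-0.16) or 3 (-0.21) or combination replicate 1 (-0.14). The DNA-binding protein Ifi203 (-0.35 ± 0.06) was also lower, and Tmed10 (0.23 ± 0.05), a transport protein, was the higher member. The kinase Tbk1 (-0.16 ± 0.08) and the factor Irf3 (-0.16 ± 0.08) did not pass. The list counted 0 higher and 7 lower with library totals alone, and 3 higher and 0 lower with NK receptor scaling. The call of Tmed10 ended with library totals alone, and those of Ifi203 and Tmem173 with NK receptor scaling. Irf3 and Tbk1 were called lower with library totals alone.

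Interferon-stimulated genes rose in part: 12 of 39 members tested were higher and 5 lower, with a median of -0.04 against -0.02 for all genes. The oligoadenylate synthetase family led. Oasl2 (gene 23962, chromosome 5, 114896926 to 114912245), an antiviral protein of that family, had 249.6, 242 and 229 CPM in the combination libraries, against 83.8, 84.8 and 81.7 CPM in the IgG libraries. Every combination library exceeded every IgG library, a 2.88-fold difference (log2 fold change 1.53 ± 0.05, adjusted p = 1.14e-27). Oas3, which activates RNase L, had 144, 138 and 134 CPM in the combination libraries, against 72.3, 69.6 and 71.2 CPM in the IgG libraries (log2 fold change 0.97 ± 0.06, adjusted p = 1.55e-17). Rsad2 (viperin), which blocks viral RNA synthesis, had 35.2, 37.8 and 36.2 CPM in the combination libraries, against 18.8, 19.4 and 19.0 CPM in the IgG libraries (log2 fold change 0.93 ± 0.11, adjusted p = 1.40e-09). The other higher members included Oas2 (0.87 ± 0.10), Oasl1 (0.87 ± 0.15), the exonuclease Isg20 (0.80 ± 0.14), Slfn1 (0.68 ± 0.07) and the entry inhibitor Ifitm3 (0.37 ± 0.05). The lower members included Mx2 (-1.69 ± 0.48), at 1.06 CPM in the combination, the RNA sensor regulator Dhx58 (-0.48 ± 0.12) and Ifit3 (-0.48 ± 0.15). Ifit3, which binds viral RNA with its relatives, had 11.4, 11.1 and 14.6 CPM in the combination libraries, against 14.8, 19.7 and 17.3 CPM in the IgG libraries, and the groups did not overlap, but the call ended without IgG control replicate 2 (-0.37) or combination replicate 1 (-0.42) or 2 (-0.40). The widely used response markers Isg15 (0.34 ± 0.14, adjusted p = 0.0647) and Irf7 (-0.09 ± 0.08, adjusted p = 0.476) did not pass. The list counted 11 higher and 17 lower with library totals alone, and 20 higher and 1 lower with NK receptor scaling. The calls of Dhx58 and Ifit3 ended with NK receptor scaling. Irf7 was called lower with library totals alone, and Isg15 was called higher with NK receptor scaling.

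Some of the genes that moved in opposite directions carry the same interferon-stimulated response element core, GAAANNGAAA, in the 250 bases before a RefSeq start. Searched on both strands, the core was in 3 of the 10 higher members with a RefSeq promoter entry (Oas3, Rsad2 and Trim30a), in 2 of the 3 lower members (Ifit3 among them) and in 9 of the 17 not called. Of all 27025 genes with an entry, 3.46% hold it. The windows of 3 genes are shown from 5′ to 3′ on the gene's strand, from RefSeq on GRCm38.p6 (mm10), with the match in capitals, as examples of both directions. They lie at chr5:120777660-120777909, minus strand for Oas3, chr12:26456453-26456702, minus strand for Rsad2 and chr19:34583279-34583528, plus strand for Ifit3.
Oas3: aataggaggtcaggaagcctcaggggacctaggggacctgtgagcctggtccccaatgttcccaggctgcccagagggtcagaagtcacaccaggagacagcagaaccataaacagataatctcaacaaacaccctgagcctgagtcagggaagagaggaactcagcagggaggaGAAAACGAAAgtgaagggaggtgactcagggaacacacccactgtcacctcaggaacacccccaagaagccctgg
Rsad2: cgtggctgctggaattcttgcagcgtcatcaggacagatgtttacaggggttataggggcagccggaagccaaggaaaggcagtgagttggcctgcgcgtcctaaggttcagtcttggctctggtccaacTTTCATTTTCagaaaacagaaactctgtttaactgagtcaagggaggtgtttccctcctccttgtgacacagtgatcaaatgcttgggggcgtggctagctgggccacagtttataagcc
Ifit3: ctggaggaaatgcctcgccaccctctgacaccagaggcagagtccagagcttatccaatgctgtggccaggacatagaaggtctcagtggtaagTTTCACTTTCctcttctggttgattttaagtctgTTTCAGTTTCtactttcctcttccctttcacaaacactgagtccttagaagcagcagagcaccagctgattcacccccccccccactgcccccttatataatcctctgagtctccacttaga
The first base of the match is 75 bases before the RefSeq start in Oas3 and 120 in Rsad2, and Ifit3 has matches at 156 and 122 bases. The Ifit3 start used lies inside the gene, which spans 34583119 to 34588982, and so does its whole window. The Oas3 start used also lies inside its gene, which ends at 120777684, so that window overlaps the gene. A match describes the letters only.

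Beside the single treatments, whose comparisons share the IgG libraries, interferon-stimulated genes differed in which treatment they resembled in value, and the median of the list was -0.04 with the combination, -0.18 with cGAMP and 0.11 with anti-IL-35. Oasl2 changed by 1.53 with the combination, 0.42 with cGAMP and 1.86 with anti-IL-35. Oas3 changed by 0.97 with the combination, 0.14 with cGAMP and 1.25 with anti-IL-35, and Slfn1 by 0.68 with the combination, 0.13 with cGAMP and 1.14 with anti-IL-35. By contrast, Ifit3 changed by -0.48 with the combination, -0.48 with cGAMP and 0.39 with anti-IL-35, and Dhx58 by -0.48 with the combination, -0.62 with cGAMP and -0.19 with anti-IL-35. In the direct comparison, the combination exceeded cGAMP at Oasl2 (1.10 ± 0.05, adjusted p = 1.03e-21) and lay below anti-IL-35 (-0.34 ± 0.05, adjusted p = 3.38e-06). Over the 39 members, 19 were higher and 0 lower in the combination than with cGAMP, and 0 higher and 9 lower than with anti-IL-35. For all genes these shares were 9.99% higher and 4.83% lower against cGAMP (14.8% in either direction), and 3.67% higher and 2.17% lower against anti-IL-35 (5.85% in either direction). Irf7, the factor that amplifies interferon production, changed by -0.09 with the combination, -0.47 with cGAMP and 0.28 with anti-IL-35.

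**Figure D4:**
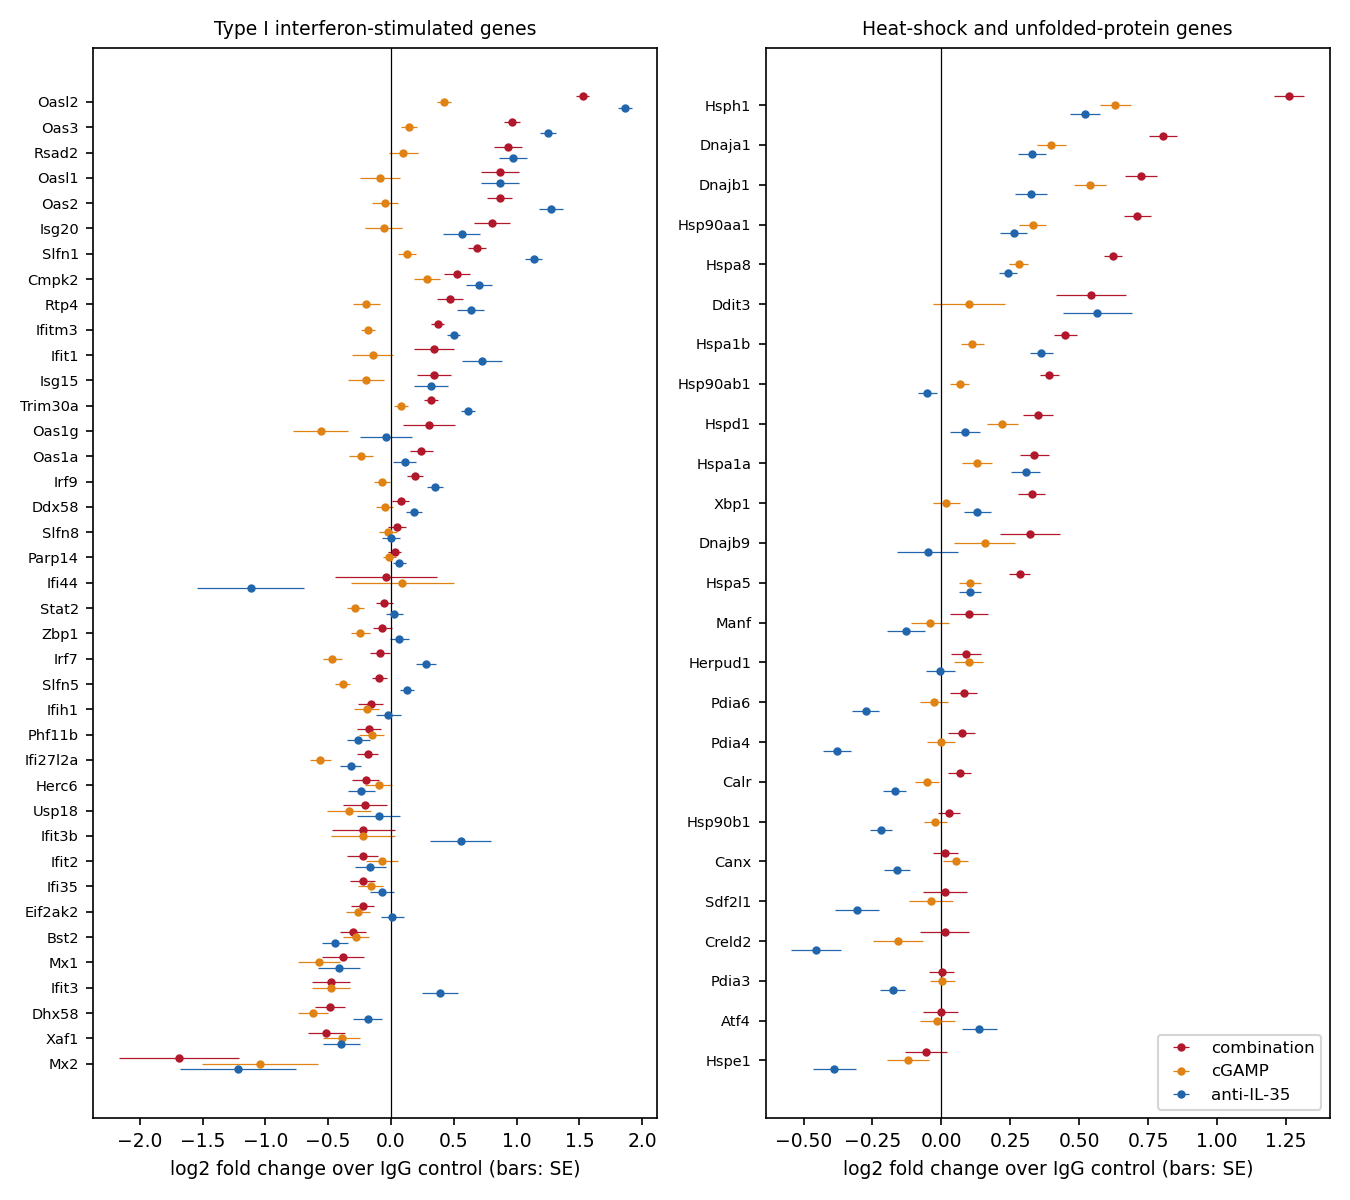
Points give the log2 fold change over IgG control of each tested member of 2 gene lists, with SE bars, for the combination (red), cGAMP (orange) and anti-IL-35 (blue). Oasl2 had 1.53 with the combination, and 19 interferon-stimulated genes were higher in the combination than with cGAMP. Hsph1 and Hspa8 had larger values with the combination than with either single treatment.

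Genes of the interferon-gamma response and of MHC class I gave 5 higher and 6 lower members of 31, with a median of -0.02. The class I heavy chain H2-D1 had 3102, 3119 and 2929 CPM in the combination libraries, against 2465, 2432 and 2504 CPM in the IgG libraries (log2 fold change 0.31 ± 0.04, adjusted p = 9.32e-10). Other higher members were the factor Irf1 (0.41 ± 0.05) and the GTPases Gbp2 (0.41 ± 0.06) and Irgm2 (0.36 ± 0.07). Nlrc5 (-0.22 ± 0.06), the transactivator of class I genes, and the guanylate-binding protein Gbp9 (-0.31 ± 0.07) were lower. The class I chain H2-K1 (0.06 ± 0.03) and the T cell attracting chemokines Cxcl9 (-0.15 ± 0.16) and Cxcl10 (-0.15 ± 0.23) did not pass. Gbp2 and Gbp9 thus moved apart, though with NK receptor scaling no member of the list was lower. The list counted 4 higher and 17 lower with library totals alone, and 16 higher and 0 lower with NK receptor scaling. NK receptor scaling ended the calls of Gbp9 and Nlrc5. H2-K1 was called lower with library totals alone, and H2-K1 was called higher with NK receptor scaling.

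Homing receptors moved in both directions. Cxcr4, the receptor of CXCL12, had 375, 383 and 375 CPM in the combination libraries, against 175, 174 and 181 CPM in the IgG libraries (log2 fold change 1.09 ± 0.05, adjusted p = 3.26e-24). The chemokine receptors Cxcr2 (1.96 ± 0.05) and Ccr1 (1.39 ± 0.06), typical of neutrophils, the hyaluronan receptor Cd44 (0.83 ± 0.04), the selectin ligand Selplg (0.53 ± 0.04), and the integrin chains Itgb2 (0.32 ± 0.03) and Itgal (0.23 ± 0.03) were also higher. Ccr2 had 290.4, 286 and 341 CPM in the combination libraries, against 435, 443 and 413 CPM in the IgG libraries (log2 fold change -0.49 ± 0.06, adjusted p = 1.38e-06), lower in every combination library. The egress receptor S1pr1 (-0.45 ± 0.07) was lower too. In all, 9 of 20 members tested were higher and 4 lower, and the list counted 8 higher and 9 lower with library totals alone, and 14 higher and 1 lower with NK receptor scaling. Of the higher genes, Cxcr2, Ccr1, Cxcr4, Cd44 and Itgb2 are also expressed by neutrophils, whose part in these values was not tested. The call of Itgal ended with library totals alone, and that of S1pr1 with NK receptor scaling.

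Immediate-early genes, which cells switch on soon after a stimulus or handling, were higher in 12 and lower in 4 of 22 members, with a median of 0.48. Dusp1, a phosphatase of MAP kinases, had 509, 499 and 469 CPM in the combination libraries, against 109, 114 and 112 CPM in the IgG libraries (log2 fold change 2.14 ± 0.05, adjusted p = 1.30e-36), a 4.41-fold difference. The AP-1 subunits Fosl2 (1.71 ± 0.05), Fos (1.28 ± 0.05) and Junb (1.05 ± 0.04) and the mRNA decay factor Zfp36 (1.11 ± 0.04) rose, while Egr2 (-0.84 ± 0.17), Dusp2 (-0.25 ± 0.06) and Myc (-0.46 ± 0.10) fell. Dusp1, Fos, Junb and Zfp36 are also abundant in neutrophils, and their part was not tested. The list counted 12 higher and 5 lower with library totals alone, and 15 higher and 1 lower with NK receptor scaling. NK receptor scaling ended the calls of Dusp2 and Myc.

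Several cytosolic chaperones were higher in the combination than in each other group. Hsph1 (HSP110, gene 15505, chromosome 5, 149616843 to 149636498), a nucleotide exchange factor for HSP70, had 242, 246 and 263 CPM in the combination libraries, against 108, 101 and 104 CPM in the IgG libraries (log2 fold change 1.26 ± 0.05, adjusted p = 2.12e-24). Hspa8, the constitutive HSP70, had 2781, 2699 and 2742 CPM in the combination libraries, against 1746, 1794 and 1795 CPM in the IgG libraries (log2 fold change 0.62 ± 0.03, adjusted p = 4.43e-21). In both, every combination library exceeded every IgG library. Hsph1 changed against IgG by 1.26 with the combination, 0.63 with cGAMP and 0.52 with anti-IL-35, and Hspa8 by 0.62 with the combination, 0.28 with cGAMP and 0.24 with anti-IL-35. Tested directly, Hsph1 exceeded cGAMP (0.63 ± 0.05, adjusted p = 2.48e-13) and anti-IL-35 (0.74 ± 0.05, adjusted p = 1.67e-15), and Hspa8 exceeded both as well (0.34 ± 0.03, adjusted p = 9.81e-12 and 0.38 ± 0.03, adjusted p = 7.46e-13). The cochaperone Dnaja1 (0.80 ± 0.05) and the HSP90 genes Hsp90aa1 (0.71 ± 0.05) and Hsp90ab1 (0.39 ± 0.03) were higher than in each other group as well.

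Over the whole list of heat-shock and unfolded-protein-response genes, 13 of 25 members tested were higher and 0 lower, with a median of 0.28 against -0.02 for all genes. The medians of the single treatments over IgG were 0.07 with cGAMP and -0.0032 with anti-IL-35. In the direct comparisons, 11 members were higher and 0 lower than with cGAMP, and 20 higher and 0 lower than with anti-IL-35. Over all genes the shares higher were 9.99% and 3.67%, and the shares lower 4.83% and 2.17%. Of the genes of the endoplasmic reticulum, the chaperone Hspa5 (0.28 ± 0.04) (BiP), the factor Xbp1 (0.33 ± 0.05) and Ddit3 (0.54 ± 0.13) (CHOP) were higher, and the chaperone Calr (0.07 ± 0.04) did not pass. The nearly identical copies Hspa1a (0.34 ± 0.05) and Hspa1b (0.45 ± 0.04), inducible HSP70, were higher, and the level of each is uncertain. The list counted 12 higher and 5 lower with library totals alone, and 24 higher and 0 lower with NK receptor scaling. Chaperone transcripts also respond to how tissue is dissociated and sorted, which the sources used here do not describe by sample, and that part was not tested. Calr was called higher with NK receptor scaling.

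In the NF-kappaB list 4 of 18 members tested were higher and 3 lower. Il1b, the inflammasome cytokine of myeloid cells, had 787, 779 and 803 CPM in the combination libraries, against 218, 213 and 212 CPM in the IgG libraries (log2 fold change 1.88 ± 0.04, adjusted p = 3.50e-35). The inhibitor Nfkbia (0.24 ± 0.05) and the survival gene Birc3 (0.23 ± 0.06) rose by small amounts. Traf1 (-0.30 ± 0.07, adjusted p = 0.00105) was among the lower members, without overlap of libraries. The median of the list was 0.01, and 38.9% of members were called, against 23.2% of all genes. The list counted 1 higher and 8 lower with library totals alone, and 10 higher and 0 lower with NK receptor scaling. The calls of Birc3 and Nfkbia ended with library totals alone.

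Glycolysis genes were mostly higher: 17 of 21 members tested were higher and 1 lower, with a median of 0.34. Slc16a3, the lactate exporter MCT4, had 279.8, 265 and 279 CPM in the combination libraries, against 72.5, 75.2 and 76.0 CPM in the IgG libraries (log2 fold change 1.88 ± 0.06, adjusted p = 1.41e-30), a 3.68-fold difference. Slc2a3, the glucose transporter GLUT3, had 242, 249.8 and 246 CPM in the combination libraries, against 115, 112 and 117 CPM in the IgG libraries (log2 fold change 1.10 ± 0.05, adjusted p = 1.46e-23). Neither gene overlapped between groups. Regulators and enzymes along the path rose as well, from Pfkfb4 (1.26 ± 0.07) and the glucose transporter Slc2a1 (0.74 ± 0.07) to Pkm (0.66 ± 0.04), Hk2 (0.48 ± 0.09) and Gapdh (0.43 ± 0.04). Pdk1 (-0.44 ± 0.11), which diverts pyruvate from mitochondria, was the lower member. The list counted 11 higher and 2 lower with library totals alone, and 19 higher and 0 lower with NK receptor scaling. Neutrophils are glycolytic and express Slc16a3 and Slc2a3, and their part in these values was not tested. NK receptor scaling ended the call of Pdk1.

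Of the oxidative phosphorylation genes, 4 of 24 members tested were higher and 1 lower, and the higher ones were mitochondrially encoded subunits such as COX1 (0.29 ± 0.04) and COX2 (0.25 ± 0.04). The share called, 20.8%, is near the 23.2% of all genes. Under TMM no nuclear subunit of the list was higher. The mitochondrial share of counts was 6.18 to 6.87% in the combination libraries and 5.98 to 6.20% in the IgG libraries. The groups overlapped in it, and its part in these calls was not tested. The list counted 1 higher and 13 lower with library totals alone, and 13 higher and 0 lower with NK receptor scaling. Cell cycle genes gave 5 higher and 1 lower members of 27, so 22.2% were called, near the 23.2% of all genes. Mki67, the marker of dividing cells, had 186, 188 and 201 CPM in the combination libraries, against 155, 154 and 150.3 CPM in the IgG libraries (log2 fold change 0.32 ± 0.06, adjusted p = 6.53e-06), and Hmgb2 (0.43 ± 0.05) and Ube2c (0.43 ± 0.12) rose as well. The mitotic kinase Cdk1 (0.10 ± 0.14) did not pass. The list counted 2 higher and 2 lower with library totals alone, and 18 higher and 0 lower with NK receptor scaling. The calls of COX2 and Ube2c ended with library totals alone. Cdk1 was called higher with NK receptor scaling.

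The 2 neutrophil lists had the highest medians of the 31 gene lists. Mpo (gene 17523, chromosome 11, 87793784 to 87804412), whose product myeloperoxidase is stored in primary granules, had 356, 353 and 315 CPM in the combination libraries, against 63.4, 51.7 and 56.9 CPM in the IgG libraries, a 5.96-fold difference (log2 fold change 2.57 ± 0.06, adjusted p = 5.86e-35). S100a9, a calcium-binding alarmin of mature neutrophils (gene 20202, chromosome 3, 90692630 to 90695721), had 4857, 4982 and 4933 CPM in the combination libraries, against 1268, 1222 and 1231 CPM in the IgG libraries (log2 fold change 1.99 ± 0.03, adjusted p = 5.20e-41). Ngp, a granule protein of late precursors, had 3159.7, 3133 and 3199 CPM in the combination libraries, against 804, 785 and 797 CPM in the IgG libraries (log2 fold change 1.99 ± 0.03, adjusted p = 1.80e-41). The libraries of S100a9 and Ngp did not overlap between groups. All 6 primary granule markers and all 19 later markers were higher under TMM, library totals alone and NK receptor scaling alike. Their medians were 2.30 and 1.93 under TMM, 2.14 and 1.77 with library totals alone, and 2.56 and 2.19 with NK receptor scaling. The primary granule markers summed to 657 ± 44.9 CPM in the combination, against 131 ± 9.20 CPM with IgG, and the later markers to 21526 ± 79.8 CPM in the combination, against 5682 ± 118 CPM with IgG. Primary granule genes such as Elane (2.33 ± 0.09), made by promyelocytes, and genes of mature cells such as Cxcr2 (1.96 ± 0.05) rose together.

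Promoters of 7 neutrophil markers share the core letters bound by C/EBP factors, which direct granulocyte genes. Of the 25 markers, 22 had a RefSeq promoter entry, and TTGCNNAA was found on either strand within 250 bases before the start in 7 of them (31.8%), Ngp, Ltf, Lcn2, Mmp8, Ly6g, S100a9 and Retnlg. Of all 27025 genes with an entry, 10.8% hold it. Windows of 3 abundant markers with a match are shown from 5′ to 3′ on the gene's strand (RefSeq, GRCm38.p6), with the matches in capitals. They lie at chr9:110419558-110419807, plus strand for Ngp, chr9:111019042-111019291, plus strand for Ltf and chr3:90695722-90695971, minus strand for S100a9.
Ngp: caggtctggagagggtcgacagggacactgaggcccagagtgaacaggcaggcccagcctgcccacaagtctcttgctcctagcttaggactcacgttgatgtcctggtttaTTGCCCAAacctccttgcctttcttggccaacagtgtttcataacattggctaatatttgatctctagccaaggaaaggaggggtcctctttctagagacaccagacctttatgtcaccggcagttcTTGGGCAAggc
Ltf: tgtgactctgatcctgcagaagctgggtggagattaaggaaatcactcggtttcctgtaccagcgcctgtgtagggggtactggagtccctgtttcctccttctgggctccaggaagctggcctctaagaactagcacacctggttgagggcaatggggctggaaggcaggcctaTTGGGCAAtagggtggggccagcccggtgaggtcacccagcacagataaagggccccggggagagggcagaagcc
S100a9: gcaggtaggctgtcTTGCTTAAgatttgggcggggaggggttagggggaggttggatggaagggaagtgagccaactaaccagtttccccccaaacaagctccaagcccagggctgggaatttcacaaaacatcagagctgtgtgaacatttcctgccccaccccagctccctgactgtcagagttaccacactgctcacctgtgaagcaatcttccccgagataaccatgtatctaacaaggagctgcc
Ngp holds 2 matches, at 138 and 11 bases before its start. The match lies 75 bases before the start of Ltf and 236 bases before that of S100a9. None of the 30 interferon-stimulated genes with an entry held the core, and none of the 22 neutrophil markers held the interferon core.

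**Figure D5:**
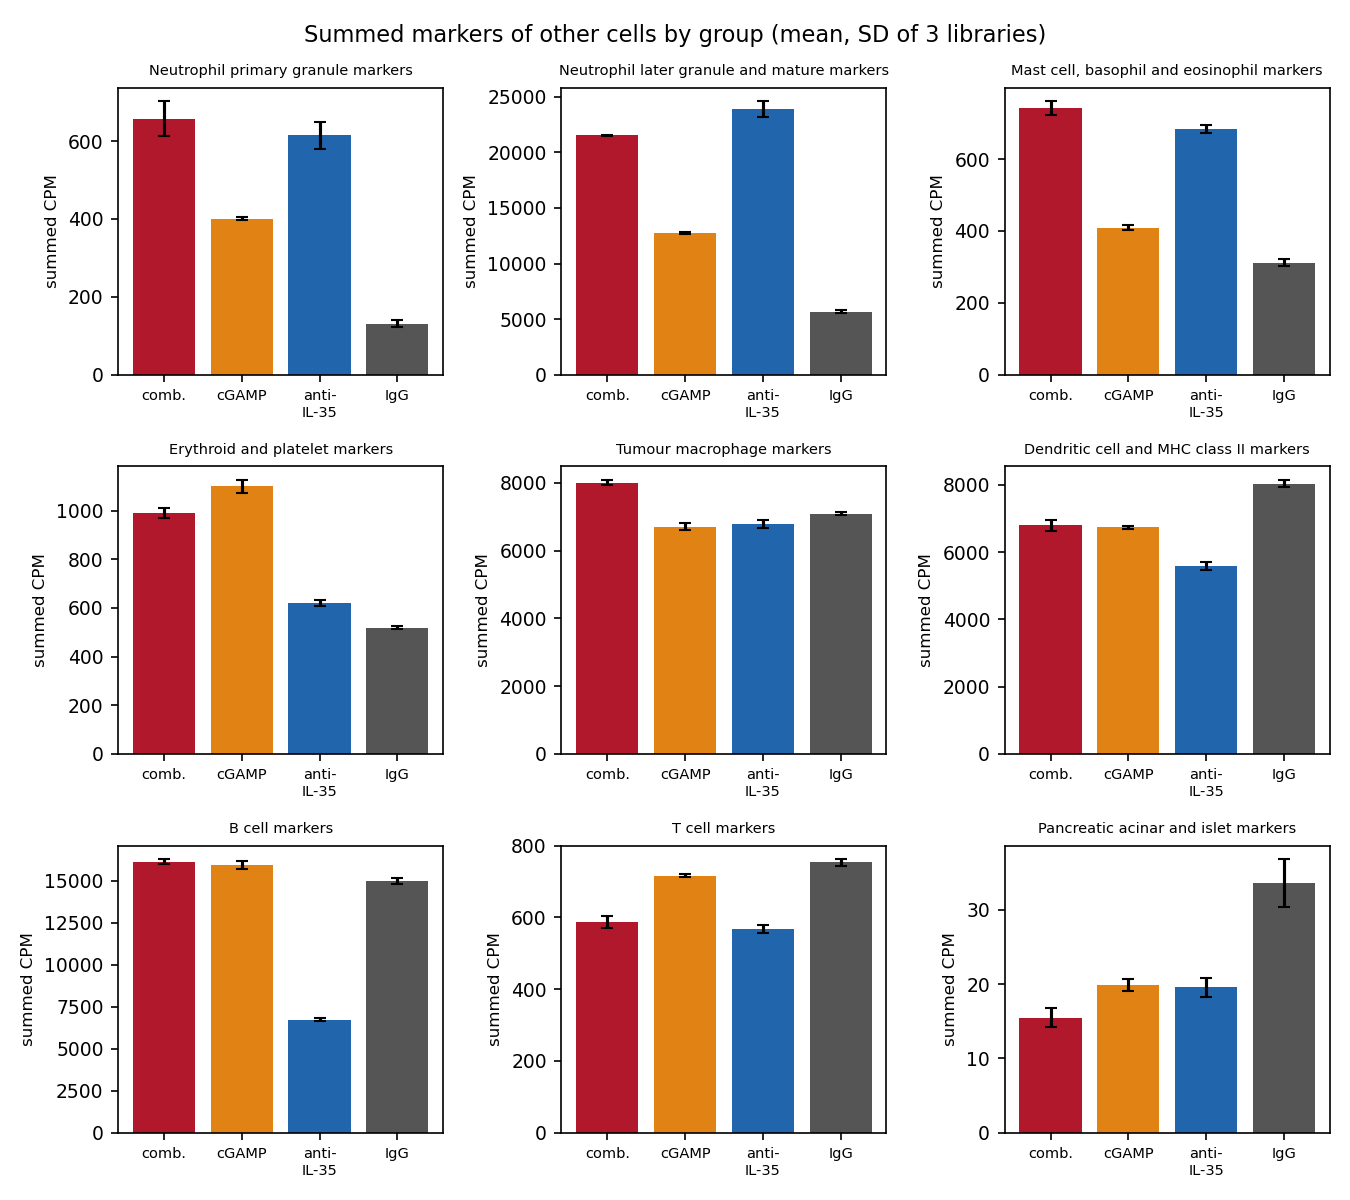
Bars give the summed level (CPM) of 9 marker lists of other cells, from left to right for the combination, cGAMP, anti-IL-35 and IgG control, with the SD of 3 libraries. Neutrophil sums and the mast cell, basophil and eosinophil sum were higher in the combination than with IgG, and the dendritic cell, T cell and acinar sums were lower. Hdc, also expressed by neutrophils, carried much of the difference in the mast cell, basophil and eosinophil sum.

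Basophil and mast cell markers rose with them: 10 of 12 members tested were higher and 2 lower, with a median of 1.18, and their sum was 741 ± 19.6 CPM in the combination, against 311 ± 9.50 CPM with IgG. Hdc, the histamine-producing enzyme, had 389, 411 and 399 CPM in the combination libraries, against 79.1, 72.5 and 77.9 CPM in the IgG libraries (log2 fold change 2.39 ± 0.05, adjusted p = 5.09e-37). Prss34, a basophil protease, had 76.5, 86.5 and 76.6 CPM in the combination libraries, against 28.0, 29.3 and 30.8 CPM in the IgG libraries (log2 fold change 1.44 ± 0.10, adjusted p = 1.95e-17). Prss34 did not overlap between groups, and the basophil protease Mcpt8 (1.29 ± 0.13), the mast cell carboxypeptidase Cpa3 (1.50 ± 0.20) and the eosinophil lectin Siglecf (1.38 ± 0.14) followed. Hdc is also expressed by neutrophils, and it carried much of the difference in the sum of the list. It made up 400 ± 11.0 CPM of that sum in the combination, against 76.5 ± 3.53 CPM with IgG. Prss34 changed by 1.44 with the combination, -0.25 with cGAMP and 1.12 with anti-IL-35, and it was higher in the combination than with cGAMP (1.69 ± 0.10, adjusted p = 5.86e-19) and with anti-IL-35 (0.32 ± 0.09, adjusted p = 0.0201). Of the 2 lower members, Ear2 (-0.49 ± 0.11) is an eosinophil ribonuclease. Erythroid and platelet markers were higher in 8 and lower in 0 of 14 members, including the globins Hba-a1 (1.13 ± 0.05) and Hba-a2 (1.17 ± 0.04), which resemble each other so that each level is uncertain, and Car1 (1.18 ± 0.25). NK receptor scaling ended the call of Ear2.

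Markers of macrophages, dendritic cells, T cells and B cells were called lower more often than higher. Of the macrophage list, 1 of 19 members tested were higher and 9 lower, with a median of -0.17. Arg1, the arginase of suppressive macrophages, had 31.0, 40.1 and 34.9 CPM in the combination libraries, against 55.9, 58.5 and 56.5 CPM in the IgG libraries (log2 fold change -0.69 ± 0.11, adjusted p = 9.66e-07), and Spp1 (-0.66 ± 0.17), the scavenger receptor Msr1 (-0.46 ± 0.13), the elastase Mmp12 (-1.59 ± 0.28) and the complement chain C1qb (-0.21 ± 0.06) fell with it. The lysozyme gene Lyz2 (0.55 ± 0.03), shared with neutrophils, was the higher member, and its level carried the sum of the list, 8009 ± 71.1 CPM in the combination, against 7094 ± 48.0 CPM with IgG. The growth factor receptor Csf1r (0.06 ± 0.04) did not pass. In the dendritic cell list 0 of 18 members tested were higher and 12 lower. The class II chain H2-Ab1 had 968, 1030.3 and 946 CPM in the combination libraries, against 1183, 1218 and 1245 CPM in the IgG libraries (log2 fold change -0.31 ± 0.04, adjusted p = 2.06e-08), and the invariant chain Cd74 (-0.17 ± 0.03), H2-Aa (-0.35 ± 0.04) and Cd209a (-1.05 ± 0.21) were lower, whereas Xcr1 (0.24 ± 0.17), the receptor of cross-presenting dendritic cells, did not pass. With NK receptor scaling, 6 macrophage and 3 dendritic cell members were higher and 2 and 1 lower. The calls of C1qb, Cd74, H2-Aa, H2-Ab1, Msr1 and Spp1 ended with NK receptor scaling. Csf1r was called lower with library totals alone, and Csf1r and Xcr1 were called higher with NK receptor scaling.

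In the T cell list 0 of 17 members tested were higher and 12 lower, with a median of -0.37. Cd4 had 28.1, 27.4 and 26.8 CPM in the combination libraries, against 39.9, 41.7 and 40.2 CPM in the IgG libraries (log2 fold change -0.57 ± 0.10, adjusted p = 1.77e-05), lower in every combination library. The antigen receptor gene Trbc1 (-0.48 ± 0.07) and the inhibitory receptor Cd5 (-0.64 ± 0.15) were lower too. NK receptor scaling left 3 T cell members lower and 1 higher. Of the B cell list, 2 of 19 members tested were higher and 10 lower. The coreceptor Cd22 (-0.43 ± 0.06), Ms4a1 (-0.29 ± 0.06) (CD20) and the receptor chain Cd79a (-0.19 ± 0.05) were lower, but Ighm, the IgM constant region and one of the most abundant transcripts, had 8806, 8834 and 8619 CPM in the combination libraries, against 7669.7, 7611 and 7739 CPM in the IgG libraries (log2 fold change 0.19 ± 0.03, adjusted p = 1.31e-07). The groups of Ighm did not overlap, and the sum of the list was 16129 ± 157 CPM in the combination, against 14969 ± 187 CPM with IgG. With library totals alone 0 and with NK receptor scaling 5 B cell members were higher, and 13 and 0 lower. Library totals alone ended the call of Ighm, and NK receptor scaling those of Cd22, Cd79a and Ms4a1.

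Antibody isotypes moved apart. Ighg1, the IgG1 constant region, had 219, 229.6 and 208 CPM in the combination libraries, against 101, 98.2 and 101 CPM in the IgG libraries (log2 fold change 1.13 ± 0.06, adjusted p = 4.26e-22). Igha, the IgA constant region, had 1617, 1664 and 1654 CPM in the combination libraries, against 2272, 2303 and 2397 CPM in the IgG libraries (log2 fold change -0.50 ± 0.03, adjusted p = 1.95e-17). The first was higher and the second lower in every combination library. Ighg3 (0.41 ± 0.05), Ighg2c (0.33 ± 0.04) and Ighg2b (0.18 ± 0.04) were higher, and the joining chain Jchain (-0.05 ± 0.04) did not pass. Of 281 V, D and J segments of immunoglobulins and T cell receptors, 123 were called, 73 higher and 50 lower. Over these segments Pearson's r of log2 levels was 0.919 to 0.926 for pairs of 1 combination and 1 IgG library and 0.986 to 0.991 for pairs within a group. The points are segments and not replicates. Segments resemble each other, so single segments are uncertain. The call of Ighg2b ended with library totals alone. Jchain was called lower with library totals alone, and Jchain was called higher with NK receptor scaling.

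Transcripts of pancreas and tumour epithelium were rare, and the few called were mostly lower. Dmbt1, a scavenger receptor of epithelia (gene 12945, chromosome 7, 131032057 to 131121628), had 0.176, 0.557 and 1.46 CPM in the combination libraries, against 7.86, 6.26 and 7.49 CPM in the IgG libraries (log2 fold change -3.25 ± 0.44, adjusted p = 3.70e-08), the largest fall among genes named by size of change. Amy2a5, 1 of several nearly identical pancreatic amylase copies, had 2.88, 1.78 and 2.06 CPM in the combination libraries, against 11.6, 8.38 and 10.1 CPM in the IgG libraries (log2 fold change -2.16 ± 0.27, adjusted p = 8.84e-09), and the level of a single copy is uncertain. In the acinar and islet list 0 of 9 members tested were higher and 3 lower, with sums of 15.4 ± 1.27 CPM in the combination, against 33.6 ± 3.24 CPM with IgG. In the ductal list 1 of 12 members tested were higher and 2 lower. The keratin Krt8 (-1.36 ± 0.34) was lower, Epcam (-0.31 ± 0.26) did not pass, and Cdh1 (0.86 ± 0.21) was higher. Fibroblast markers were higher in 2 and lower in 1 of 10 members, and endothelial markers in 1 and 0 of 8. The shares called were 33.3% of the acinar and islet list, 25% of the ductal, 30% of the fibroblast and 12.5% of the endothelial list. Of all genes, 23.2% were called. The defining fibroblast markers Dcn, Pdgfra and Fap and the endothelial markers Cldn5 and Tek were below the filter on low counts.

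Of the 12 genes named for the size of their rise, 6 belonged to the neutrophil and basophil lists and the other 6 to no list. Among these 6 were Snai1, a factor of epithelial-mesenchymal transition, with 7.70, 5.74 and 4.37 CPM in the combination libraries, against 1.04, 1.12 and 1.43 CPM in the IgG libraries (log2 fold change 2.30 ± 0.33, adjusted p = 2.04e-07), and Chac1, a glutathione-degrading enzyme of the stress response, with 10.3, 7.02 and 9.70 CPM in the combination libraries, against 2.21, 1.59 and 1.83 CPM in the IgG libraries (log2 fold change 2.26 ± 0.26, adjusted p = 5.77e-10). Inhba (2.24 ± 0.31), the activin A subunit, Crispld2 (2.25 ± 0.15), the chemokine receptor Cxcr1 (2.23 ± 0.22) and Ncam1 (2.23 ± 0.25) complete the 6. The part of other cells in these 6 was not tested. All 12 were chosen for libraries that did not overlap. The largest falls after the epithelial genes were in Ptprv, with 3.70, 1.62 and 2.76 CPM in the combination libraries, against 8.44, 10.0 and 11.2 CPM in the IgG libraries (log2 fold change -1.88 ± 0.24, adjusted p = 1.52e-08), in Mmp12 (-1.59 ± 0.28), in Izumo1r (-1.29 ± 0.23), the folate receptor of regulatory T cells, and in Slc27a1 (-1.23 ± 0.25), a fatty acid transporter. Ddr1 (-1.19 ± 0.19), a collagen receptor, and the eosinophil attractant Ccl24 (-1.12 ± 0.25) also fell.

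Against each single treatment, in comparisons that share the combination libraries, several NK receptors were lower. Ncr1 was lower than with cGAMP (-0.31 ± 0.05, adjusted p = 6.19e-07) and than with anti-IL-35 (-0.15 ± 0.04, adjusted p = 0.0278). Klrb1c was lower than with cGAMP (-0.35 ± 0.04, adjusted p = 3.04e-09) and anti-IL-35 (-0.28 ± 0.04, adjusted p = 8.25e-07), although each agent alone left it at 0.16 and 0.09 over IgG. Eomes was -0.30 ± 0.05 against cGAMP and -0.36 ± 0.05 against anti-IL-35, and Klrk1 -0.35 ± 0.05 and -0.22 ± 0.05, all 4 called. Of the activating list, 3 members were higher and 13 lower than with cGAMP, and 0 higher and 7 lower than with anti-IL-35. Of the inhibitory list these counts were 2 and 10, and 2 and 5. Of all genes, 9.99% were higher and 4.83% lower than with cGAMP, and 3.67% higher and 2.17% lower than with anti-IL-35. These values are under TMM. NK receptor scaling, which holds 8 such transcripts near 0, gave 6845 calls against cGAMP and 2783 against anti-IL-35 over all genes.

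Neutrophil transcripts stood above cGAMP and near anti-IL-35. All 19 later markers were higher than with cGAMP, and 0 were higher and 10 lower than with anti-IL-35. S100a9 was 0.78 ± 0.03 against cGAMP and -0.18 ± 0.03 against anti-IL-35, and Mpo 0.80 ± 0.06 and 0.20 ± 0.06, all 4 called. B cell markers were higher than with anti-IL-35 in 17 of 19 members, with Ighm at 1.82 ± 0.03, adjusted p = 7.89e-43. Arg1 was higher than with cGAMP (1.23 ± 0.12, adjusted p = 5.60e-12) and with anti-IL-35 (0.87 ± 0.11, adjusted p = 6.55e-08), while it was lower than with IgG. Glycolysis genes were higher than with cGAMP in 15 of 21 members and higher than with anti-IL-35 in 0. For all genes the shares higher were 9.99% against cGAMP and 3.67% against anti-IL-35, and 2.17% were lower than with anti-IL-35. Csf1 changed over IgG by 1.37 with the combination, 0.37 with cGAMP and 1.66 with anti-IL-35, and Cxcr4 by 1.09 with the combination, 0.44 with cGAMP and 0.87 with anti-IL-35.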

How the data were processed

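RNA-seq of sorted tumour NK cells gave 12 libraries in 4 groups. The authors deposited raw counts per gene. Per the submitters' processing notes they used STAR 2.7.7a, SAMtools 1.15, featureCounts and build mm10. The annotation, the strand setting and the treatment of multimapping reads are not given in the sources used here. IDs with no symbol held 0.251% of counts.

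The counts were modelled with edgeR 4.0.16 in R 4.3.3, using filterByExpr (minimum count 10), TMM scaling and 1 robust quasi-likelihood fit of all 12 libraries (8 residual degrees of freedom, common biological coefficient of variation 0.0958). P-values were adjusted by Benjamini-Hochberg over 14182 genes, and the script was tested on simulated data. An exact permutation test of 3 libraries against 3 cannot go below p = 0.1. Chi-square over degrees of freedom was 3.26 to 6.74 within groups, above the counting noise, so no libraries were merged.

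The groups, the 31 gene lists (600 genes, 563 tested) and the tests were chosen with earlier results of these data known. Genes were named by 3 rules: the 12 largest changes in each direction at 5 CPM or more in the higher group and with no overlap of libraries (antigen receptor segments, ribosomal protein, mitochondrial and clone-numbered genes passed over), up to 3 called members of each list with the smallest p, and 32 set genes. Not all are printed, and other list members were named after their values were seen. The alternatives tried were RLE size factors, library totals alone, scaling on 8 NK receptor transcripts, DESeq2 1.42.0, no filter, a filter of 1 CPM in 6 libraries, only the groups compared, a replicate block, no immunoglobulin or other-cell-list genes, and each of the 6 libraries left out. Promoters are the 250 bases before each RefSeq start. Some genes of the lists are counted but not reported by name here.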

Additional observations from a re-analysis of the deposited data

Results flagged for a closer look

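The change that went with cGAMP differed between mice given anti-IL-35 and mice not given it for 15 of the 32 genes named in every case, by the interaction term of the same edgeR fit at an adjusted p under 0.05, against 10.4% of all genes tested. The difference is the log2 change of the combination over anti-IL-35 minus that of cGAMP over IgG, and it rests on all 12 libraries. Of 7 receptor and lineage genes, these 4 differed: Ncr1 by -0.19 ± 0.06 (-0.15 with the antibody, 0.03 without), Klrb1c by -0.44 ± 0.06 (-0.28 with the antibody, 0.16 without), Klrk1 by -0.38 ± 0.06 (-0.22 with the antibody, 0.15 without) and Eomes by -0.51 ± 0.07 (-0.36 with the antibody, 0.15 without). The other 3 did not pass, with Klrd1 at -0.14 ± 0.08 (adjusted p = 0.315), Tbx21 at -0.22 ± 0.08 (adjusted p = 0.0588) and Cd226 at -0.26 ± 0.15 (adjusted p = 0.323). Of 5 effector genes, these 3 differed: Prf1 by -0.23 ± 0.06 (-0.05 with the antibody, 0.19 without), Gzma by -0.22 ± 0.05 (-0.07 with the antibody, 0.15 without) and Ccl5 by -0.25 ± 0.05 (0.05 with the antibody, 0.30 without). Gzmb, at 0.14 ± 0.06 (adjusted p = 0.183), and Ifng, at -0.30 ± 0.17 (adjusted p = 0.326), did not pass. The Ncr1 difference lay next to the threshold (adjusted p = 0.0497).

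The IL-35 subunits differed in opposite directions. Ebi3 differed by -0.97 ± 0.22 (-0.15 with the antibody, 0.82 without) and Il12a by 2.66 ± 0.78 (1.68 with the antibody, -0.98 without). The Il12a value rests on few counts, since its mean level ranged from 0.54 CPM (anti-IL-35 group) to 2.41 CPM (IgG group). Neither Il12a change behind it was called by itself (adjusted p = 0.0707 with the antibody, 0.279 without), so the direction for Il12a is uncertain. The antiviral gene Oasl2 differed too, by -0.76 ± 0.08 (-0.34 with the antibody, 0.42 without). Of the other interferon-response genes of the set, Isg15, at 0.22 ± 0.19 (adjusted p = 0.595), and Irf7 did not pass. The chemokine Cxcl9 differed by 1.21 ± 0.23 (0.21 with the antibody, -1.004 without). Markers of other cells gave some of the widest differences: S100a9 by -1.39 ± 0.05 (-0.18 with the antibody, 1.21 without), Ighm by 1.64 ± 0.04 (1.82 with the antibody, 0.18 without), H2-Ab1 by 0.63 ± 0.06 (0.31 with the antibody, -0.32 without) and Arg1 by 2.79 ± 0.16 (0.87 with the antibody, -1.92 without). The log2 interaction is below 0 in 10 of the 15 genes and above 0 in 5. How far the makeup of the sorted cells sets these values was not tested.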

How the results depend on the processing

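Scaling moved the counts most. With library totals alone 1360 genes were higher and 3370 lower than with IgG, and with NK receptor scaling 5341 were called, 5187 higher and 154 lower, beside 6845 against cGAMP and 2783 against anti-IL-35. Leaving out immunoglobulins and the genes of the other-cell lists left 13799 genes, and the count against anti-IL-35 was 524. The other settings that kept every library of the comparison left these counts within 1.5 times the reported values, with 3440 genes called by DESeq2. Leaving out a library gave 2636 to 2960 calls against IgG, 1922 to 2049 higher and 708 to 911 lower, where the lowest count, without IgG control replicate 2, was also over 1.5 times from the reported 1064. It gave 1681 to 1998 calls against cGAMP and 627 to 765 against anti-IL-35. Replicate numbers did not pair the libraries: deviations from group means correlated at 0.0203, 0.00231 and -0.00551 for equal numbers, and a replicate block gave 3183 calls against IgG.

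Of 199 genes named with a value, 173 were called, and 42 of these calls ended or turned with NK receptor scaling, 13 with library totals alone, and between 0 and 4 without a library. Ccl5 and Traf1 are not among the 199. NK receptor scaling holds 8 NK receptor transcripts near 0 by construction, so calls of such receptors that it ended are no separate test. The sign turned with library totals alone for Calr (-0.090), Cdk1 (-0.054), Csf1r (-0.094), H2-K1 (-0.096), Prf1 (-0.074) and Tbx21 (-0.080). It turned with NK receptor scaling for C1qb (0.051), Cd226 (0.20), Cd74 (0.091), Cd79a (0.068), Ctsc (0.082), Cxcl10 (0.12), Cxcl9 (0.12), Dusp2 (0.011), Eomes (0.10), Fasl (0.063), Gzma (0.17), Gzmb (0.25), Havcr2 (0.028), Id2 (0.019), Il18r1 (0.052), Il6st (0.22), Irf3 (0.10), Irf7 (0.18), Jchain (0.21), Klrb1c (0.070), Klrk1 (0.067), Nlrc5 (0.039), Stat4 (0.21), Tbk1 (0.10) and Tmem173 (0.042). When single libraries were left out, 6 uncalled genes turned: Cd226 (-0.15 to 0.048, turning without combination replicate 2 or IgG control replicate 2), Cdk1 (-0.0028 to 0.15, turning without combination replicate 3), Cxcl9 (-0.31 to 0.019, turning without combination replicate 3), Gzmb (-0.022 to 0.0087, turning without IgG control replicate 2), Il6st (-0.11 to 0.023, turning without combination replicate 2) and Irf7 (-0.16 to 0.0039, turning without combination replicate 3). These values are log2 fold changes over IgG. Summed CPM of marker lists kept their direction with RLE size factors, and with library totals alone the sums of B cell markers (0.967 of the IgG level, against 1.08 under TMM) and endothelial markers (0.918, against 1.02) turned. The causes of these shifts were not tested. Transcripts under the count filter were not tested, and genes near 1 CPM rest on few counts per library.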
